A study of Rattus norvegicus with 113 samples.

Results

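The effect of traumatic brain injury (TBI) on gene expression in rat cortex was compared between the acute interval of 24 hr and the chronic interval of 6 months. The quantity of interest was the difference of differences, the log2 ratio of TBI over sham at 6 months minus the same ratio at 24 hr, together with the genes that differed in the same direction at both intervals. The comparison used 16 of the 113 samples of the series, 4 TBI and 4 sham arrays at each interval. All rats were adult male Sprague-Dawley rats without genetic modification. TBI rats received parasagittal fluid percussion, in which a pressure pulse strikes the dura, exposed through a hole in the skull, and deforms the brain. Sham rats were anesthetized and had the same surgery without the pulse, and so carried the surgical procedure as well. Naive rats had neither surgery nor anesthesia, and 4 naive arrays at each interval entered the same model. Every array held RNA from 1 rat, taken from a cortical piece next to the injury site. The severity is called moderate in the sample labels and severe in the methods. Of the 60 cortex arrays, the others belonged to other intervals and entered alternative fits only.

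Injured brain tissue is known to pass through phases. Within a day, dying cells and leaking vessels elicit stress proteins, cytokines and acute-phase proteins, resident microglia lose their surveying state, and blood leukocytes enter. Over months the tissue may scar, the ventricles may widen, and microglia and astrocytes may stay reactive. Choroid plexus is the secretory epithelium inside the ventricles that makes cerebrospinal fluid, and ependyma is the ciliated lining of the ventricles.

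The Agilent whole-genome arrays gave 1 fluorescence intensity per probe. Levels are log2 processed signal after subtraction of the array's median, so that a level of 0 is the median probe and levels of different probes are not comparable. Of 45598 probes, 49.6% to 61.0% per array were well above background in the 6 groups, and the TBI arrays at 24 hr, at 59.7% to 61.0%, lay above the sham arrays at 24 hr, at 53.6% to 56.4%. Testing was restricted to probes whose signal exceeded background clearly on all 4 arrays of some TBI or sham group, which left 26154 probes and 11831 named genes. Cortical neuron identity was present throughout, since 11 of the 12 tested cortex markers and all 26 tested neuron and synapse genes were above background on all 24 arrays. At both intervals the TBI arrays sat on another slide than the sham arrays, so slide and injury cannot be told apart, and the naive arrays shared the slide of the sham arrays. At 24 hr, sham rats 2 and 4 stood apart from sham rats 1 and 3. Their mean level over the acute-phase list was 4.50 and 3.90, against 2.59 and 2.69, and their mean level over the microglia list was 4.51 and 4.56, against 3.53 and 3.70. The TBI arrays at 24 hr lay above all 4 sham arrays for the microglia list, at 4.63 to 5.32.

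The cortex differed widely between TBI and sham rats at 24 hr and in few genes at 6 months. At 24 hr, 2057 probes (7.86% of those tested) passed an adjusted p of 0.05 in limma, 1966 higher and 91 lower in TBI. At 6 months 4 probes (0.0153%) passed, all higher. No probe passed for the difference between the 2 effects (0%), and the smallest adjusted p by limma was 0.0825. At an unadjusted p under 0.05 the difference was met by 2412 probes (9.22%), 499 with a TBI minus sham difference that was more positive at 6 months and 1913 with one that was more positive at 24 hr. The mean of both effects passed for 1645 probes (6.29%), 1573 higher and 72 lower. The median over all tested probes was itself shifted by 0.12 at 24 hr and 0.04 at 6 months on the log2 scale. With the 75th percentile in place of the median as the array scale, the calls at 24 hr were 191 higher and 146 lower, so the lean toward higher calls depended on the scale. List medians below are therefore given relative to the median of all tested genes, which no such rescaling moves. The lean also depended on the control group. With naive rats in place of sham, 2321 probes were called higher and 3881 lower at 24 hr. For the difference between intervals, 383 called probes were then more positive at 6 months and 166 at 24 hr. The median over all tested probes for sham minus naive at 24 hr was -0.19.

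A probe was taken as changed the same way at both intervals if the sign was equal, the fold at least 1.4 and the unadjusted p under 0.05 at each. This held for 246 higher probes (0.941%) and 13 lower probes (0.0497%), and for 127 higher named genes (1.07%) and 2 lower ones. Of the 899 probes past these thresholds and higher at 6 months, 27.4% were also higher at 24 hr, where 8.88% of all tested probes were. Of the 2322 higher at 24 hr, 10.6% were also higher at 6 months, where 3.44% of all probes were. For lower probes the shares were 6.99% of 186 and 3.04% of 428, against 1.64% and 0.711%. Across the tested probes, which are not independent, the log2 effects of the 2 intervals had a Pearson r of 0.288 and a Spearman rho of 0.319. The 2 contrasts share no arrays. No probe passed when the larger of both p-values was adjusted over all probes, the smallest value being 0.368 by limma.

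**Figure D1:**
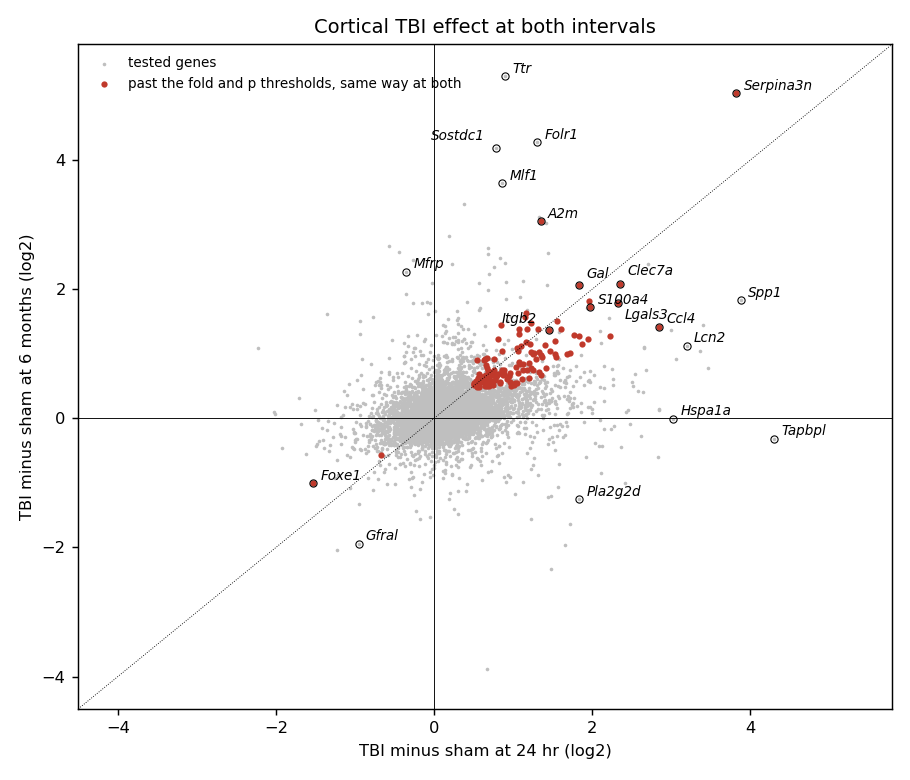
Log2 difference of TBI minus sham in cortex at 24 hr (x axis) and at 6 months (y axis) for the 11831 tested genes, 1 point per gene, with the 129 genes changed the same way at both in red. Most of the spread lies along the 24 hr axis, while Ttr, Folr1, Sostdc1 and Serpina3n reach above 4 on the 6 months axis.

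Among the 127 genes higher at both intervals, the median of the smaller of the 2 log2 differences was 0.70. In 89 of these 127 genes, the difference was larger at 24 hr. Only A2m had an unadjusted p under 0.05 for the difference between intervals. The thresholds are tight for some members: Fmo5 and Cks2 just passed, with larger p-values of 0.0489 and 0.0492 in limma, and Pak2 and Gpr18 just missed, at 0.0507 and 0.0508. The 8 members with the largest smaller effect were Serpina3n, Clec7a, Gal, Ptx3, Lgals3, S100a4, Parvg and Ccl4.

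Serpina3n, a serine protease inhibitor secreted by reactive astrocytes, had levels of 6.65, 7.42, 7.25 and 7.0 in TBI rats and 1.81, 5.11, 1.31 and 4.80 in sham rats at 24 hr. At 6 months its levels were -0.79, 3.63, 1.14 and 4.92 in TBI and -2.48, -3.13, -3.53 and -2.09 in sham, where it was not well above background on any array. The groups did not overlap at either interval, and TBI rat 1 was the lowest of its group at 6 months. The log2 difference was 3.83 ± 0.92 (SE, limma adjusted p = 0.0191) at 24 hr and 5.04 ± 0.92 (limma adjusted p = 0.0511) at 6 months, the latter at least 11.3-fold. Sham rats at 24 hr were also 6.34 above naive rats on the log2 scale (limma adjusted p = 0.000552). Its promoter is shown because it led the genes that were higher at both intervals. It was read from RefSeq on the GRCr8 build, chr6:129088142-129088441 on the plus strand, from 250 bases before the start to 50 after, with the match to TTCNNNGAA, the palindrome of the STAT element, in capitals.
Serpina3n: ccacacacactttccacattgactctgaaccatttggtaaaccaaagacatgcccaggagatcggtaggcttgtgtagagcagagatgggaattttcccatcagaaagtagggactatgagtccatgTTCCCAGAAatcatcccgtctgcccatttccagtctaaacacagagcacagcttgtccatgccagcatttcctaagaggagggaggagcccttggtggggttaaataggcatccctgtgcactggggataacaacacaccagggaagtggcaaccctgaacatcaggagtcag
This motif, which reads the same on both strands, occurred in 2970 of 33469 promoters (8.87%) and in 1 of 10 acute-phase members with a promoter in the table.

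A2m, the broad protease inhibitor alpha-2-macroglobulin and a main acute-phase protein of the rat, had the larger effect at 6 months and was named for that after its values were seen. At 24 hr its levels were 5.46, 4.52, 5.03 and 4.87 in TBI and 2.02, 4.70, 3.09 and 4.68 in sham rats, and at 6 months 4.25, 6.29, 4.52 and 6.48 against 1.54, 1.76, 2.99 and 3.05. At 24 hr TBI rat 2 lay within the sham range, and at 6 months every TBI rat was above every sham rat. The log2 difference was 1.35 ± 0.54 at 24 hr (limma adjusted p = 0.126) and 3.05 ± 0.54 at 6 months (limma adjusted p = 0.0511), and the difference between intervals was 1.70 (95% confidence interval 0.12 to 3.28, limma adjusted p = 0.505). A second A2m probe gave 1.26 and 3.11.

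Genes of phagocytes and other leukocytes were among the rest. Lgals3, which encodes galectin-3 of activated microglia and macrophages, had levels of 7.54, 6.08, 5.43 and 7.85 in TBI against 3.07, 5.75, 3.27 and 5.51 in sham rats at 24 hr, and 2.99, 6.04, 4.93 and 5.53 against 2.78, 3.51, 3.08 and 2.98 at 6 months. TBI rat 1 at 6 months was within the sham range, as was TBI rat 3 at 24 hr. Its log2 differences were 2.33 ± 0.63 (limma adjusted p = 0.0288) and 1.79 ± 0.63 (limma adjusted p = 0.408).
Itgb2, the common beta chain of leukocyte integrins, had levels of 3.96, 3.55, 2.99 and 4.23 in TBI against 1.56, 2.60, 1.79 and 2.98 in sham rats at 24 hr, and 2.15, 4.06, 2.80 and 3.08 against 1.38, 1.79, 1.39 and 2.07 at 6 months. Its groups were apart at both intervals, narrowly so at each, and TBI rat 1 was again the lowest of its group at 6 months. The log2 differences were 1.45 ± 0.38 (limma adjusted p = 0.0269) and 1.36 ± 0.38 (limma adjusted p = 0.31), and the interval of their difference ran from -1.22 to 1.04.

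The other leading members differed as follows at the 2 intervals. S100a4, a calcium-binding protein of motile cells, differed by 1.98 at 24 hr (limma adjusted p = 0.0256) and 1.72 at 6 months, and Parvg, an adaptor of leukocyte adhesion, by 1.56 (limma adjusted p = 0.0215) and 1.51. No sham array was above background for Parvg at 6 months, and its difference there was at least 1.00-fold, so that its size and rank at that interval are not bounded away from no change. Clec7a, the beta-glucan receptor dectin-1 of phagocytes, differed by 2.36 and 2.08, although a second probe gave 2.14 and 0.17. Ptx3, a soluble pattern recognition protein, differed by 1.97 and 1.82, and by at least 2.50-fold at 6 months, where its sham arrays were not above background. Gal, the neuropeptide galanin, differed by 1.84 and 2.07, and had naive levels of 4.52, 0.82, 1.93 and 1.45 at 24 hr, a spread as wide as the effect. Ccl4, a chemokine that draws in macrophages and T cells, differed by 2.85 (limma adjusted p = 0.00546) and 1.42. None of these 6 passed the adjusted threshold at 6 months. The 95% confidence interval of the change from 24 hr to 6 months ran from -1.78 to 1.26 for S100a4, from -2.76 to 2.20 for Clec7a and from -2.97 to 0.10 for Ccl4 on the log2 scale, so sizeable changes either way were within the error for S100a4 and Clec7a.

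Both genes lower at the 2 intervals encode regulators. Crh, the peptide corticotropin-releasing hormone of cortical interneurons, had levels of 2.53, 3.75, 2.98 and 2.23 in TBI against 3.99, 3.13, 3.64 and 3.41 in sham rats at 24 hr, and 3.46, 3.10, 3.18 and 3.19 against 3.81, 3.88, 3.55 and 3.96 at 6 months. TBI rat 2 overlapped the sham range at 24 hr, and the groups were apart at 6 months. Its log2 differences were -0.67 ± 0.23 and -0.57 ± 0.23, and its mean effect passed (limma adjusted p = 0.0304). Foxe1, a forkhead transcription factor, differed by -1.53 at 24 hr (limma adjusted p = 0.0466) and -1.01 at 6 months, from a low level at which some arrays of both 6 months groups were not above background.

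**Figure D2:**
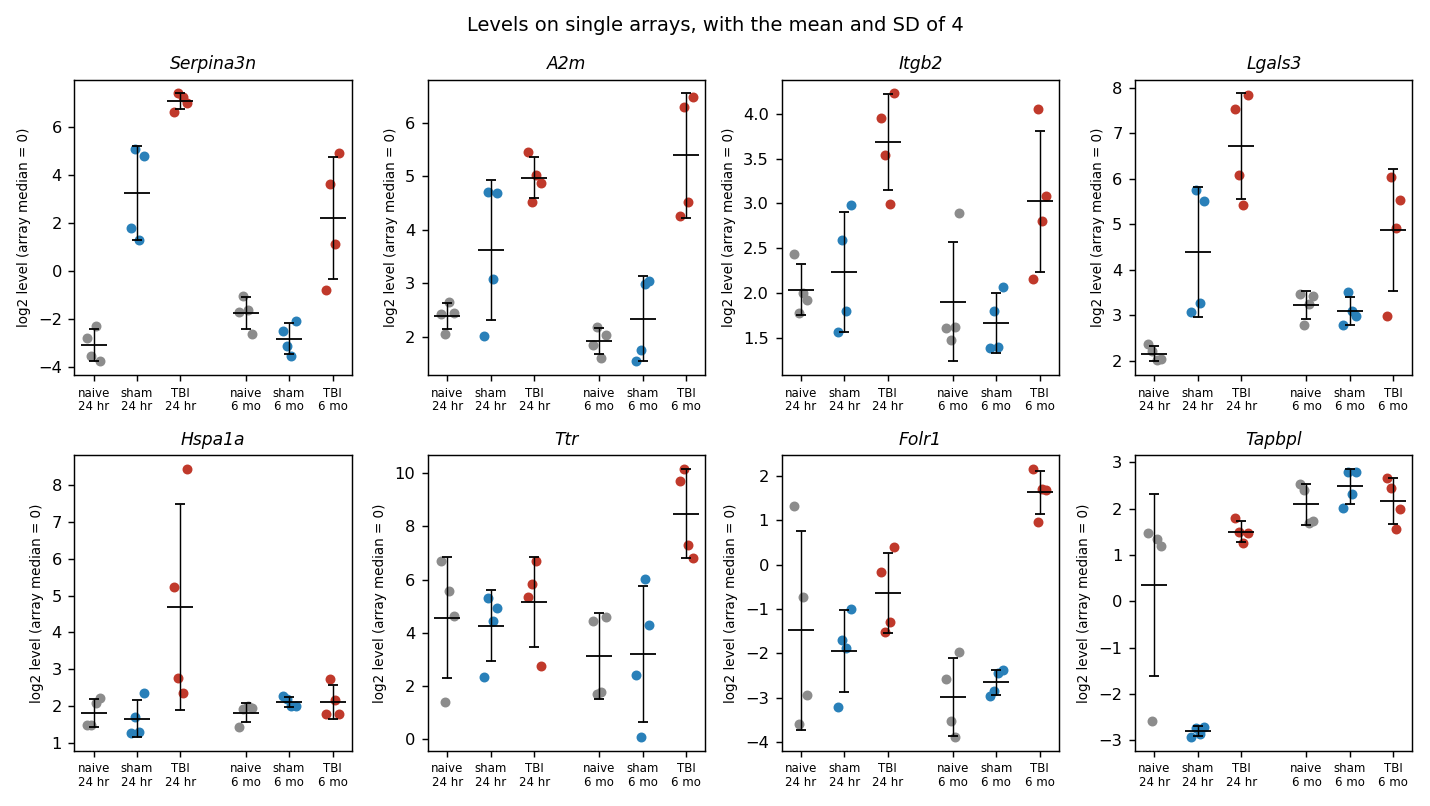
Level (log2 signal minus array median, y axis) of 8 genes in naive, sham and TBI rats at 24 hr and 6 months, 1 point per array and a bar for the mean ± SD of 4 arrays. Serpina3n, A2m, Itgb2 and Lgals3 are higher in TBI at both intervals, Hspa1a only has high TBI arrays at 24 hr, Ttr and Folr1 are high in TBI at 6 months, and Tapbpl is low in the sham arrays at 24 hr.

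The 4 probes called at 6 months held 3 named genes (0.0254% of genes, higher direction). Ppp1r36, a regulatory subunit of protein phosphatase 1, had levels of 0.66, 1.09, 0.75 and 1.18 in TBI against -0.34, -0.73, -0.49 and 0.01 in sham rats. It was also apart at 24 hr, at 0.69, 0.63, 0.08 and 0.87 against -0.87, -0.76, -0.29 and -0.13. The log2 differences were 1.31 ± 0.19 (limma adjusted p = 0.0129) at 6 months and 1.08 ± 0.19 (limma adjusted p = 0.00497) at 24 hr. Ppp1r36 was the single named gene called higher at each interval taken alone. The larger of its p-values, adjusted over all probes, did not pass (0.368 by limma). Fam161a, a protein of the ciliary base, had levels of 0.59, 2.07, 1.03 and 0.74 in TBI against -0.35, -0.75, -0.10 and -0.10 in sham rats at 6 months, a difference of 1.43 ± 0.22 (limma adjusted p = 0.0215), and differed by 0.14 at 24 hr. Amn, a membrane protein of absorptive epithelia, differed by 1.79 ± 0.30 at 6 months (limma adjusted p = 0.0471) and -0.15 at 24 hr, and 1 of its 4 sham arrays was above background at 6 months. The sham level of Amn at 6 months was 1.17 below naive, and TBI was 0.61 above naive. Fam161a and Ppp1r36 were named after their values were seen. Without sham rat 1 or 2 of the 6 months group, Fam161a and Amn were no longer called (limma adjusted p = 0.0829 and 0.0889 for Fam161a, and 0.105 and 0.108 for Amn), and Amn was also lost without sham rat 4 or TBI rat 1, 2 or 4. When only the 16 TBI and sham arrays were fitted, Ppp1r36 and Fam161a were not called at 6 months (limma adjusted p = 0.0782 and 0.111), and with all 60 cortex arrays Ppp1r36 was not (limma adjusted p = 0.42). Fam161a and Amn were not called with the 75th percentile scale (limma adjusted p = 0.0543 and 0.0739) or against naive rats (limma adjusted p = 0.269 and 0.545). With the replicate number fitted as a block, none of the 3 genes was called at 6 months (limma adjusted p = 0.0898 for Ppp1r36).

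Several gene lists with a role in the acute response had the larger relative median at 24 hr. Others were about even between 24 hr and 6 months: immediate early genes (-0.03 and -0.08), the glucocorticoid and metallothionein list (0.09 and 0.07) and complement (0.44 and 0.47). At 24 hr, 1132 named genes were called higher (9.57%), and 2975 were higher (25.1%) and 276 lower (2.33%) at an unadjusted p under 0.05. At 6 months the unadjusted shares were 731 higher genes (6.18%) and 155 lower genes (1.31%). For the difference between intervals they were 175 genes with the more positive difference at 6 months (1.48%) and 1087 with the more positive difference at 24 hr (9.19%), which include genes that were lower in TBI at one of the intervals. No member of any list was called at 6 months or for the difference between intervals. A member could enter the test through a single group where it was high, so list counts and medians can lean toward such members.

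Heat shock proteins hold damaged proteins in solution and refold them, and most genes of the family respond to the factor HSF1. Of 14 tested members of 16 listed, 8 rose at 24 hr, none had an unadjusted p under 0.05 at 6 months, and 8 had one for a larger effect at 24 hr. The list median relative to all genes was 0.57 at 24 hr and 0.01 at 6 months. Hspa1a, the inducible 70-kDa chaperone, had levels of 5.22, 2.75, 2.35 and 8.44 in TBI against 1.27, 1.72, 1.31 and 2.35 in sham rats at 24 hr, and 1.78, 2.74, 2.16 and 1.78 against 2.28, 2.18, 2.01 and 2.01 at 6 months. TBI rats 1 and 4 were far above the rest at 24 hr, TBI rat 3 was level with the highest sham rat, and the 6 months groups overlapped. The difference of 3.03 ± 0.79 at 24 hr (limma adjusted p = 0.0253) compared with 0.00 at 6 months, and the difference between the intervals was -3.03 (95% confidence interval -5.35 to -0.72). Hmox1, the heme-degrading enzyme heme oxygenase 1, differed by 2.64 (limma adjusted p = 0.0205) and 0.41, and Bag3, a co-chaperone, by 1.15 (limma adjusted p = 0.0279) and 0.17. Smaller differences were called for the mitochondrial chaperonins Hspd1 (0.70) and Hspe1 (0.40), and for Hspa5 (0.43), Cryab (0.84) and Hspb8 (0.95). Hspb1, a small heat shock protein, did not pass, at 2.10 and 1.35, and its sham arrays at 24 hr were 2.33 above naive.

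Promoters of heat shock members are printed because 8 genes of this list rose at 24 hr. Bag3, Hspb8 and Hspe1 were among them, and Hspb1, which did not pass, is shown for its matches. All are RefSeq windows of 300 bases on GRCr8, 5′ to 3′ in the sense of the gene, with each match to GAANNTTC, a palindrome of the heat shock element, in capitals. Bag3 lies at chr1:192533210-192533509 and Hspb8 at chr12:45837058-45837357, both on the plus strand. Hspe1 lies at chr9:64084077-64084376 on the plus strand, and its match is shared with the window of Hspd1 on the other strand. Hspb1 lies at chr12:26432252-26432551 on the minus strand and has 2 matches.
Bag3: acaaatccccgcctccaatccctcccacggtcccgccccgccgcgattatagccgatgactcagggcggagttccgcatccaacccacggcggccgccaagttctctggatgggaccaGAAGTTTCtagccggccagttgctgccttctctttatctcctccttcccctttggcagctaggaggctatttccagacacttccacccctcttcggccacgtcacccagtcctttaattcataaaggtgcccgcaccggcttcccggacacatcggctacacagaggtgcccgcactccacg
Hspb8: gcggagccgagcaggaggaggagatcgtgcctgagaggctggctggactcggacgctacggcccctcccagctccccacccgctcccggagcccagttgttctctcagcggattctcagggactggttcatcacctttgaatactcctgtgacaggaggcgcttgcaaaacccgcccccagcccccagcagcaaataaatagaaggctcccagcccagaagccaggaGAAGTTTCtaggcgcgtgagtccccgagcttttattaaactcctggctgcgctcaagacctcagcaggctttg
Hspe1: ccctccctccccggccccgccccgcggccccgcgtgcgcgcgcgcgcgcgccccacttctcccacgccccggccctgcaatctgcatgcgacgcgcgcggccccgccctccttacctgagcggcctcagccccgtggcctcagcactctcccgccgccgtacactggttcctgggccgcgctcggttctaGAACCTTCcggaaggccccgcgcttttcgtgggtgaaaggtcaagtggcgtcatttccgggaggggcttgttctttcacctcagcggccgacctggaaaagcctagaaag
Hspb1: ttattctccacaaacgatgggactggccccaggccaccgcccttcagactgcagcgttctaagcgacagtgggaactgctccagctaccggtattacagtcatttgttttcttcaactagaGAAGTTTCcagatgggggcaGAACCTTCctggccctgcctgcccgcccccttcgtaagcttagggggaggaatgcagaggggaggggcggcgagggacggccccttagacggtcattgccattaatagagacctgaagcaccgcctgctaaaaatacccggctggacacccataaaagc
The motif occurred in 8 of the 11 tested members with a promoter in the table, 4 of the 6 called at 24 hr, and in 2875 of all 33469 promoters (8.59%). The windows of Hspa1a and Hspa5 held 0 matches. For list members only the first listed window of a gene was searched, whereas the percentages over all promoters count every window. Any other start site of a member was not searched. GGAATTTCC, an NF-kappaB site, occurred in 111 promoters (0.332%) and in 2 of 13 chemokine and cytokine members with a promoter.

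Proliferation genes, which encode DNA replication and mitosis proteins, had the highest share called at 24 hr. Of 19 tested members of 22 listed, 15 rose at 24 hr, 1 had an unadjusted p under 0.05 at 6 months (Tyms, thymidylate synthase, 1.20, with no sham array above background), and 7 had one for a larger effect at 24 hr. The list median relative to all genes was 1.08 at 24 hr and 0.23 at 6 months. The mean level over the list was 1.66 to 3.12 in TBI and 0.49 to 2.05 in sham rats at 24 hr, with sham rats 2 and 4 highest at 1.63 and 2.05. At 6 months the means were 0.57, 0.50, 0.59 and 0.76 in TBI against 0.22, 0.20, 0.21 and 0.22 in sham rats, apart but small. Cdk1, the mitotic kinase, had levels of 4.60, 3.48, 2.45 and 4.16 in TBI against 0.72, 2.85, 1.34 and 3.16 in sham rats at 24 hr, and 0.26, 0.41, 0.31 and 1.21 against -0.22, 0.09, -0.01 and -0.04 at 6 months. The groups overlapped at 24 hr through TBI rat 3, and the differences were 1.65 (limma adjusted p = 0.0301) and 0.59. Mcm3, of the replicative helicase, differed by 1.98 and 0.73, and Rrm2, which makes deoxynucleotides, by 1.47 and -0.14.

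Of 20 tested chemokine and cytokine genes of 24 listed, 10 rose at 24 hr and 5 had an unadjusted p for a larger effect at 24 hr, while Ccl4 and Il18, a cytokine of the interleukin-1 family, were higher at both intervals by the unadjusted thresholds. The relative median was 1.27 at 24 hr and 0.43 at 6 months. Ccl2, the main monocyte attractant, had levels of 6.50, 2.66, 1.82 and 7.18 in TBI against -0.93, 2.34, -0.25 and 3.39 in sham rats at 24 hr, and -0.40, 0.93, -0.07 and 1.82 against -1.16, -0.26, -0.64 and -1.43 at 6 months. Rats with high values were found in both groups at 24 hr, and at 6 months TBI rat 1 fell among the sham rats. Its differences were 3.40 (limma adjusted p = 0.0381) and 1.44 (limma adjusted p = 0.753). Spp1, which encodes osteopontin of phagocytes, differed by 3.88 (limma adjusted p = 0.0249) and 1.83, Ccl3 by 3.36 (limma adjusted p = 0.00546) and 1.05, and Il1b, interleukin-1 beta, by 2.52 (limma adjusted p = 0.0321) at 24 hr and by at least 1.09-fold at 6 months, where no sham array was above background.

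Of 15 tested acute-phase genes of 21 listed, 7 rose at 24 hr and 3 (A2m, Serpina3n and the complement inhibitor Serping1) were higher at both intervals by the unadjusted thresholds. The relative median was 1.22 and 0.49. Lcn2, the iron-sequestering lipocalin-2, differed by 3.20 (limma adjusted p = 0.014) and 1.13, Socs3, a feedback inhibitor of cytokine signaling, by 2.26 (limma adjusted p = 0.0267) and 0.76, and Stat3, the transcription factor of interleukin-6 signaling, by 1.37 (limma adjusted p = 0.00803) and 0.42. Cebpb, a transcription factor of the acute phase, had the smallest unadjusted p of the list for the difference between intervals, 0.000925 in limma, from 0.99 to 0.09.

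The relative median of the complement list was about as high at 6 months as at 24 hr, 0.47 against 0.44. Against naive rats of the same interval it was 1.13 at 24 hr, with 10 members called, and 0.13 at 6 months. Against naive rats of 1 year it was 0.44 at 6 months. The mean level over the list at 6 months ran from 3.18 to 4.17 in naive rats and from 3.19 to 3.48 in sham rats. For C3, naive rat 4 stood at 7.63 at 6 months, against 3.71 to 4.47 in the other naive rats. The 2 intervals were about even against sham rats, but not against naive rats of the same interval. Of 19 tested members of 23 listed, 3 rose at 24 hr, the anaphylatoxin receptors C3ar1 (1.42) and C5ar1 (1.68) and the integrin chain Itgb2. At 6 months 5 had an unadjusted p under 0.05: C1qa (0.62), C3 (1.56), C6 (0.62), Serping1 (1.13) and Itgb2 (1.36). C3, the central component, differed by 0.98 at 24 hr, and C2, a serine protease of the classical pathway, by 0.55 and 0.54, neither past a threshold.

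Of the 27 microglia and macrophage genes, all tested, 11 rose and 1 fell at 24 hr, 7 were higher at an unadjusted p under 0.05 at 6 months, and 6 met the same-way thresholds. The gene that fell was P2ry12, the purine receptor of surveying microglia, by 0.87 on the log2 scale (limma adjusted p = 0.0467), and at 6 months it differed by 0.22. Fcgr2b, an immunoglobulin receptor, differed by 2.15 and 0.46, Cd14, the lipopolysaccharide co-receptor, by 2.15 and 0.27, and Gpnmb, a glycoprotein of lipid-laden phagocytes, by 2.22 (limma adjusted p = 0.0132) and 1.28. Irf8, a transcription factor of microglia, differed by 1.20 and 0.85, and Trem2, a lipid receptor of microglia, by 0.55 and 0.54. The mean level over the list was 3.61, 3.97, 4.33 and 4.81 in TBI and 3.56 to 3.85 in sham rats at 6 months, so TBI rat 1 lay within the sham range and TBI rat 4 was highest. In bulk tissue more cells of a type and more RNA per cell cannot be told apart.

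Most other glial and immune lists had the larger median at 24 hr. Of 20 tested reactive astrocyte genes of 22 listed, 7 rose at 24 hr and 2 had an unadjusted p under 0.05 at 6 months, with relative medians of 0.91 and 0.27. Gfap, the astrocyte filament protein, differed by 0.94 and 1.21, neither past its threshold. Of 23 tested interferon response genes of 27, 6 rose at 24 hr and 2 had an unadjusted p at 6 months (Rsad2, an antiviral enzyme, 1.42, and Ifi44, 0.50). Of 13 tested class 1 and 9 tested class 2 antigen presentation genes of 16 and 13 listed, 5 and 2 rose at 24 hr, and RT1-A2, a classical class 1 chain, was higher at both intervals (1.12 and 0.84). Of 5 tested neutrophil genes of 13 listed and 13 tested T cell genes of 22 listed, 1 each rose at 24 hr, S100a9 (2.51) and Cd8a (at least 3.49-fold). Cd8a was above background on all 4 arrays in TBI at 24 hr only and on no sham array, so it entered the test through the group where it was high. Of the 10 B cell genes 2 were tested and neither passed at 24 hr.

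**Figure D3:**
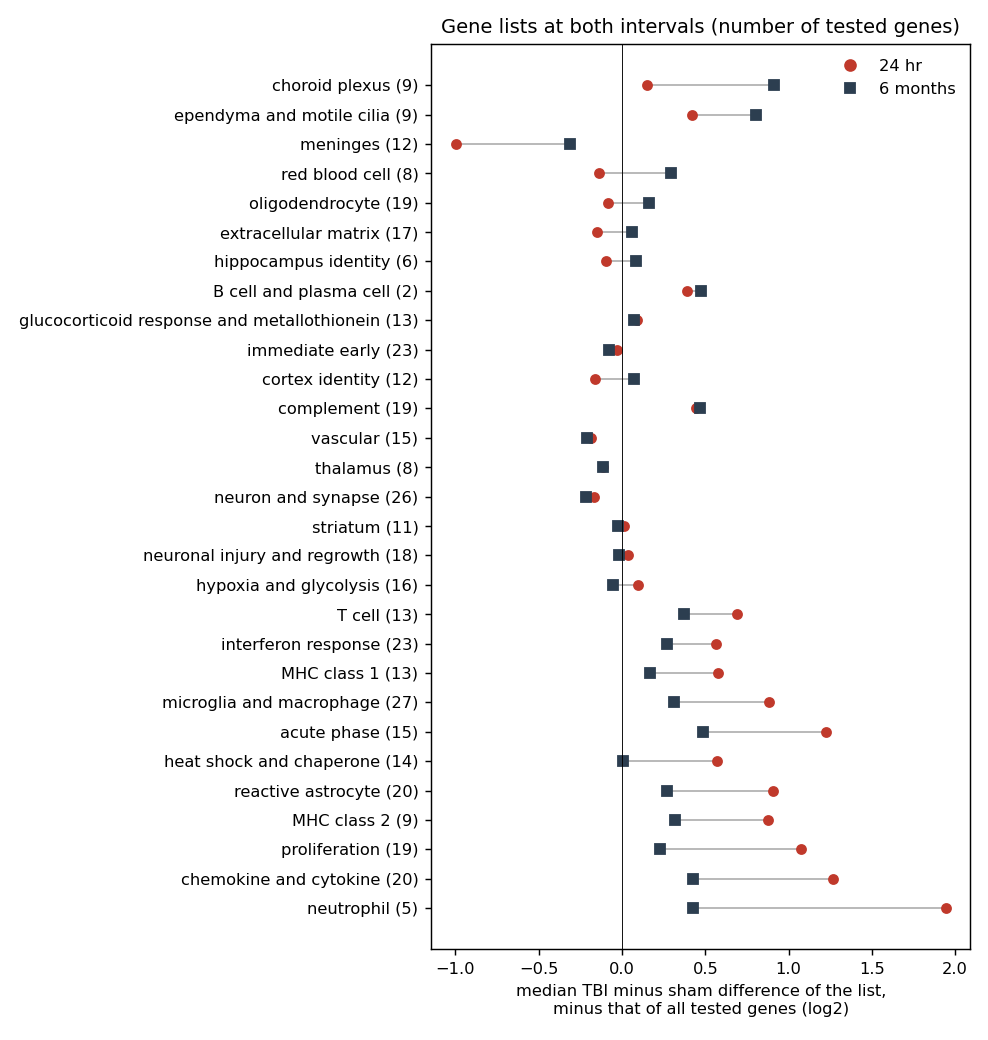
Median log2 difference of TBI minus sham over the tested members of each gene list, minus the median over all tested genes, at 24 hr and at 6 months (x axis, log2 units; 1 row per list). The neutrophil, chemokine, acute-phase and proliferation lists lie above 1 at 24 hr and below 0.5 at 6 months, and the choroid plexus and ependyma lists lie further right at 6 months.

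The choroid plexus and ependyma lists differed in the other direction between intervals. Of 9 tested choroid plexus genes of 17 listed, none was called, 5 had an unadjusted p under 0.05 at 6 months, none had at 24 hr, and 3 had one for a larger effect at 6 months. The relative median was 0.15 at 24 hr and 0.91 at 6 months. Of the 9 tested genes, 4 were above background on all 24 arrays. Folr1 entered the test only through the TBI groups, where it was high, so its part in these counts is a description. The mean level over the list was 3.42, 4.17, 3.04 and 3.12 in TBI against 1.30, 1.01, 2.02 and 1.48 in sham rats at 6 months, and 1.09 to 2.45 against 1.00 to 2.37 at 24 hr. Naive rats at 24 hr ranged from 0.13 to 2.50, so unoperated rats also varied.

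Ttr, which encodes transthyretin, the main secreted protein of the choroid plexus, had levels of 9.70, 10.15, 7.29 and 6.81 in TBI against 2.41, 0.06, 6.01 and 4.27 in sham rats at 6 months, and 5.33, 5.84, 6.69 and 2.76 against 2.33, 5.32, 4.43 and 4.95 at 24 hr. The groups were apart at 6 months and overlapped at 24 hr, and the sham rats alone ran from 0.06 to 6.01 at 6 months. The differences were 5.30 ± 1.25 (limma adjusted p = 0.179) and 0.90 ± 1.25, and the difference between intervals was 4.40 (95% confidence interval 0.71 to 8.09, limma adjusted p = 0.465). Folr1, the folate receptor of the plexus, had levels of 2.16, 0.97, 1.70 and 1.69 in TBI against -2.95, -2.84, -2.43 and -2.38 in sham rats at 6 months, where no sham array was above background. It differed by 4.28 ± 0.75 (at least 7.45-fold, limma adjusted p = 0.0511) at 6 months and by at least 1.57-fold at 24 hr, where again no sham array was above background. Sostdc1, a secreted inhibitor of BMP and Wnt ligands, differed by 4.20 at 6 months and by at least 1.18-fold at 24 hr, and Calml4, of the calmodulin family, by 1.66 and 0.29. Kcnj13, a potassium channel of the plexus, differed by 0.18 at 6 months and Enpp2, an enzyme that makes lysophosphatidic acid, by 0.21.

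Of 9 tested ependyma and motile cilia genes of 14, none was called, and 6 were higher at an unadjusted p under 0.05 at 6 months. At 24 hr 1 was higher (Foxj1) and 1 lower (Dnai1, a dynein chain of the cilium, -0.48, against 0.25 at 6 months) at that p. The relative median was 0.42 and 0.80. Mlf1 had levels of 1.73, 2.48, 2.15 and 1.48 in TBI against -2.89, -2.15, -1.34 and -0.34 in sham rats at 6 months, at least 7.86-fold (limma adjusted p = 0.0692), and differed by 0.86 at 24 hr, where a second probe gave -1.21. Foxj1, the transcription factor of motile cilia, had levels of 3.54, 1.22, 3.79 and 3.86 in TBI against 0.93, 1.36, 1.49 and 2.08 in sham rats at 6 months, with TBI rat 2 within the sham range. It differed by 1.17 and 1.64, and a second probe gave 0.10 and 0.13. Cfap126, a protein of the cilium axoneme, differed by 1.41 and 3.03. Its groups overlapped at 6 months, with TBI rat 2 at 0.75 and sham rat 4 at 1.00, and naive rat 1 at 24 hr had 3.71. The mean level over the ependyma list at 6 months ran from 1.60 to 2.89 in TBI and from 0.63 to 1.68 in sham rats. TBI rat 2 lay below sham rat 4 there. Naive rats at 24 hr ranged from 0.77 to 2.96. Meningeal genes, from the other tissue that borders the cortex, had relative medians of -1.0 and -0.31 over 12 tested of 14, with none called, and the mean over that list was lowest in TBI rat 4 at 24 hr (3.10) and TBI rat 1 at 6 months (3.63). The part that the dissected piece of tissue plays in these lists was not tested.

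**Figure D4:**
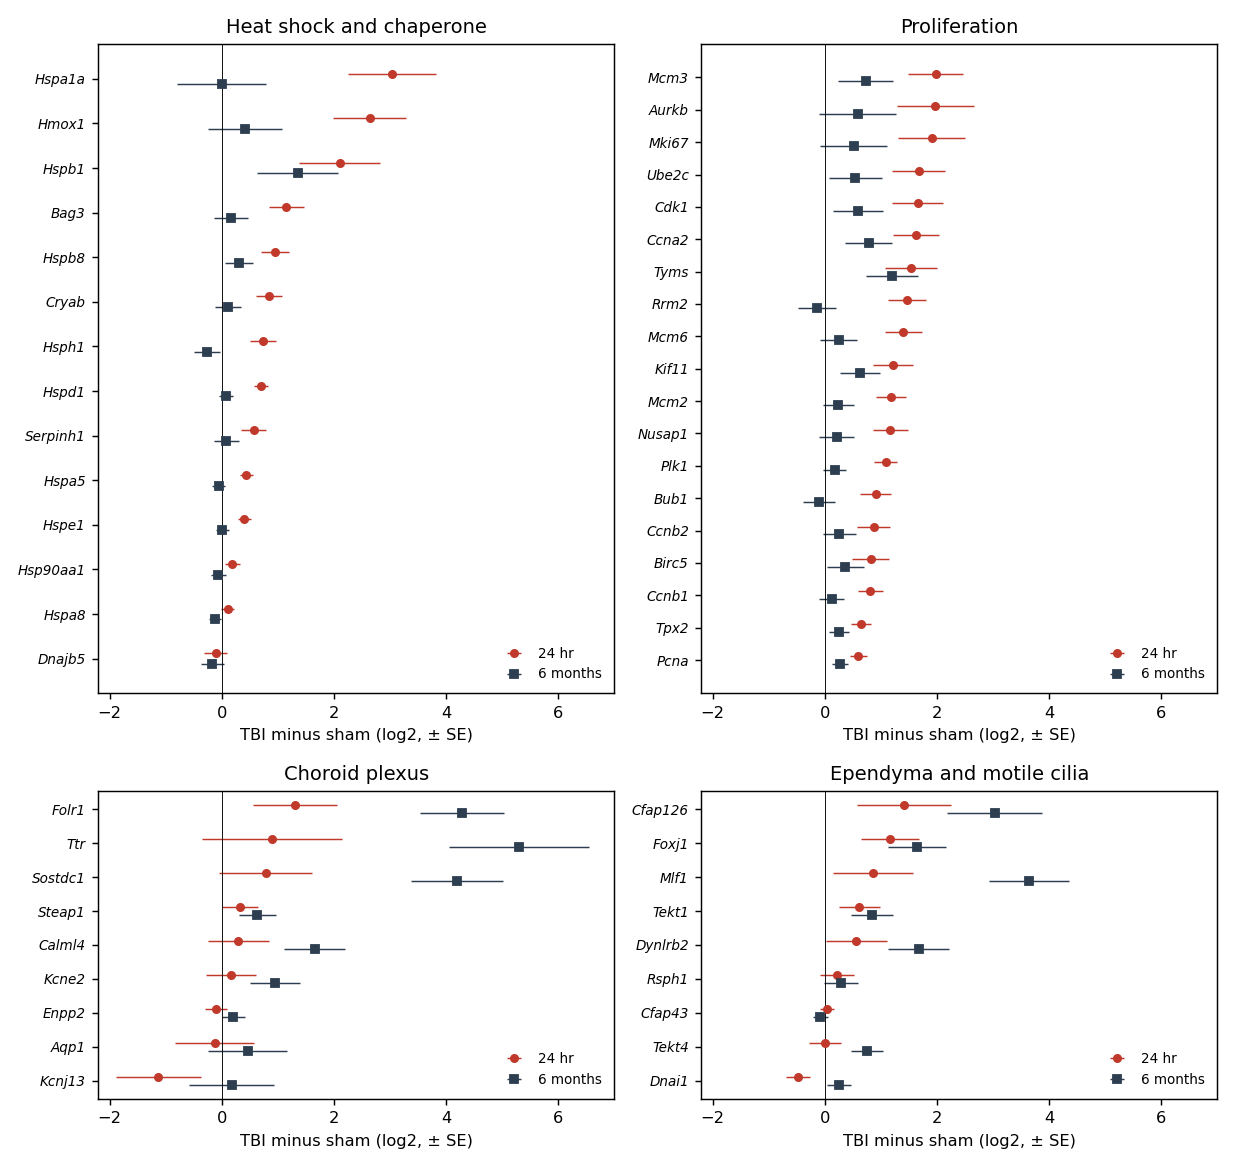
Log2 difference of TBI minus sham ± SE at 24 hr and 6 months for each tested member of the heat shock, proliferation, choroid plexus and ependyma lists (x axis, log2 units; 1 row per gene). Hspa1a and Hmox1 lie above 2.5 at 24 hr and near 0 to 0.5 at 6 months, while Ttr, Folr1, Sostdc1 and Mlf1 lie above 3.5 at 6 months with wide errors.

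Among single genes, none passed for the difference between intervals, and the smallest p-values on the side of 24 hr belonged to Med9, Tapbpl, Pdrg1 and Sf1, all at a limma adjusted p of 0.0825. Tapbpl, an editor of the peptides that class 1 molecules carry, had levels of 1.80, 1.50, 1.25 and 1.46 in TBI against -2.93, -2.72, -2.86 and -2.70 in sham rats at 24 hr, where no sham array was above background. At 6 months the levels were 2.67, 2.44, 1.56 and 1.98 against 2.01, 2.79, 2.32 and 2.78, and naive rats at 24 hr had 1.47, -2.58, 1.35 and 1.19. TBI levels at 24 hr were close to those of 3 naive rats, and the sham arrays of that interval were the low ones. The difference was 4.31 ± 0.57 (at least 7.77-fold, limma adjusted p = 0.000733) at 24 hr and -0.31 at 6 months. Med9, a subunit of the Mediator complex, differed by 0.74 and -0.13, Pdrg1 by 0.83 and 0.00, and the splicing factor Sf1 by 1.07 and 0.04. In all 3 the sham arrays at 24 hr lay below naive, by 0.66, 0.78 and 0.85 on the log2 scale, and TBI lay within 0.21 of naive.

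On the side of 6 months the smallest p-values belonged to Slc16a8, Amn, Mfrp and Dnaaf4. Mfrp entered the test only through the TBI arrays at 6 months, where it was high. Amn and Dnaaf4 entered only through TBI groups, so the ranks of these genes are a description. Slc16a8, a lactate transporter of choroid plexus and retinal epithelium, had levels of 0.53, 0.32, -0.28 and 0.30 in TBI against -1.24, -1.03, -0.13 and -1.18 in sham rats at 6 months, a difference of 1.12 with TBI rat 3 below the highest sham rat, and it differed by -0.33 at 24 hr, where no sham array was above background (difference between intervals 1.45, 95% confidence interval 0.81 to 2.08, limma adjusted p = 0.175). Mfrp, a frizzled-related membrane protein, had levels of 0.70, -0.43, -0.78 and -0.84 in TBI and -3.05 to -2.06 in sham rats at 6 months, at least 1.91-fold, and no more than 1 array of any other group was above background. Dnaaf4, an assembly factor of ciliary dynein, differed by 1.03 at 6 months, where 1 of 4 sham arrays was above background, and by -0.27 at 24 hr. A second Dnaaf4 probe gave 0.80 at 6 months and 0.20 at 24 hr.

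The mean effect over both intervals passed for 845 named genes in the higher direction (7.14%), among them 114 of the 127 that were higher at both. On the lower side, the leading called genes other than Foxe1 were Gfral, Sds, Selenov, Btbd17, Col26a1, Atp13a5 and Tspan18. Sds, a serine dehydratase, differed by -1.48 (limma adjusted p = 0.0204) and -0.39, Col26a1, a collagen, by -1.19 (limma adjusted p = 0.0177) and -0.25, and Selenov, a selenoprotein, by -0.49 and -1.01. Gfral, the receptor of the hormone GDF15, had levels of -3.38, -2.87, -2.04 and -1.53 in TBI against 0.40, -1.64, -0.92 and 0.11 in sham rats at 6 months, at least 2.15-fold lower, but naive rats were as low as TBI rats, at -1.73, -3.39, -3.68 and -2.40.

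By the thresholds, 5 named genes were higher at 24 hr and lower at 6 months: Pla2g2d, Mfhas1, Dok2, Sectm1b and Lypd8l1, which were named after their values were seen. Over all tested probes, 8 went this way, and 5 were lower at 24 hr and higher at 6 months. For Dok2, 1 TBI array and 0 sham arrays were above background at 6 months, so its lower value there is not bounded away from no change. Dok2 entered the test through the TBI arrays at 24 hr, where it was high. Pla2g2d, a secreted phospholipase, had levels of 2.86, 2.30, 2.58 and 4.18 in TBI against -0.11, 1.47, 0.97 and 2.23 in sham rats at 24 hr, and 1.53, -0.46, 0.64 and 0.25 against 1.66, 1.87, 1.67 and 1.79 at 6 months. Its groups were apart at both intervals, and its differences were 1.84 (limma adjusted p = 0.0232) and -1.25 (limma adjusted p = 0.462).

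Neurons, vessels and oligodendrocytes gave few calls against sham rats. None of 26 neuron and synapse genes was called at either interval, and their relative medians were -0.17 and -0.21. Against naive rats at 24 hr, 12 of the 26 were called lower and 0 higher, with a relative median of -0.43. In that comparison 1731 of all named genes were called lower. Against sham rats at 6 months, the difference was positive in 2 of the 26, in 1 of 15 vascular genes and in 19 of 19 oligodendrocyte genes. At 6 months Map2, a dendritic microtubule protein (-0.36), and Nefm, a neurofilament (-0.46), had an unadjusted p under 0.05. Of 19 oligodendrocyte genes, Olig2, a lineage transcription factor, rose at 24 hr (0.75), and its effect at 6 months was 0.03. None of 15 tested vascular, 12 cortex identity, 8 red blood cell, 17 extracellular matrix or 6 hippocampus genes was called. Jun, an activator protein 1 subunit, was the single immediate early gene of 23 tested that rose at 24 hr (0.81), 4 others of the hypoxia and glucocorticoid lists rose (Pfkfb3, Mt1, Cdkn1a and Lcn2), and Bdnf, the neurotrophin, differed by -0.22 and 0.02. In the list of neuronal injury genes Gadd45a (0.98) rose at 24 hr, whereas Atf3, a stress transcription factor, had 2.45 at a limma adjusted p of 0.0558. In the striatum and thalamus lists Ppp1r1b (0.51) and Prkcd (0.61) rose at 24 hr, but the direction of Ppp1r1b turned with the control group, since its sham arrays lay 0.99 below naive on the log2 scale (limma adjusted p = 0.000632) and TBI differed from naive by -0.48.

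The number of calls at 24 hr depended on single arrays. The number of called probes was 399 without TBI rat 4, 571 without TBI rat 1, 618 without sham rat 3, 628 without sham rat 1 and 3413 without TBI rat 3 of that interval. Without sham rat 2 or 4, the rats that stood apart, it was 2026 and 1816, and the proliferation calls were 1 without sham rat 3 and 19 without TBI rat 3. With the 75th percentile scale, 1 proliferation gene and 1 heat shock gene were called, while 19 and 10 had an unadjusted p under 0.05. On that scale 1 microglia gene was called higher and 0 lower, and the calls were 2 for chemokines and cytokines, 3 for acute-phase genes, 1 each for complement and interferon genes, and 0 for reactive astrocyte genes and for class 1 and class 2 antigen presentation. Without sham rat 1 of 24 hr, 1 microglia gene, 2 chemokine and cytokine genes and 0 reactive astrocyte and class 1 genes were called at 24 hr. The genes and lists here were chosen with knowledge of earlier results of these data, so their counts are a description.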

How the data were processed

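Cortex RNA was hybridized by the authors to 1-colour Agilent rat arrays, 1 array per rat. The deposited scanner files hold spot intensity as processed signal, already background-subtracted by Feature Extraction. The authors' deposited value table holds the same signal divided by a constant at about the 75th percentile of each array, a linear score with a lowest value of 0.01, whereas the methods name the median. It was used as an alternative, and its medians were 0.0694 to 0.0902 per array. Direction is not at issue in 1-colour data.

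From the deposited intensity, log2 signal minus the median of each array was computed, replicate spots of a probe were averaged and control spots left out. Named genes (46.3% of probes) were matched by accession to RefSeq, assembly GRCr8, and a gene was represented by its probe with the highest mean signal. A model with 6 groups over 24 arrays was fitted in limma 3.58.1 under R 4.3.3, and p-values were adjusted over the 26154 tested probes by the Benjamini-Hochberg method. SE values are limma's moderated standard errors. "At least" folds set the dim group at its detection floor. The number of arrays, 4 per group, limits the precision, and p-values measure the spread between rats. No spot was saturated. The fitting step was tested on simulated data before use.

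The genes named in the text were those with the smallest p or largest effect in the difference between intervals, the largest smaller effect among genes changed the same way, up to 3 members per gene list, the cortical genes the study names, and up to 10 per direction in the mean effect. Further list members were named with their lists. The members and the 29 gene lists were chosen with earlier results of these data known. Alternatives covered scaling, background correction, filters, arrays in the fit, the control group, the variance model, the replicate number and single arrays. Hippocampus arrays were not analysed here. Cortex arrays of other intervals entered only the alternative fit of all 60 cortex arrays, and the naive cortex arrays of 1 year also served as an alternative control.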

Additional observations from a re-analysis of the deposited data

Results flagged for a closer look

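In 12 of 452 groups of 4 arrays (2.65%, over 113 named genes) 1 array stood far from the other 3 by Dixon's criterion, which chance alone would meet in about 5% of groups. All values are levels in log2 signal minus the array median. At 24 hr, TBI rat 4 was low for Igf2, an insulin-like growth factor of the meninges, at 4.44 (others 6.64 to 6.80), and for Ptgds, the prostaglandin D synthase of the meninges, at 8.60 (others 10.7 to 11.1). TBI rat 1 was high for the complement protease C2 at 3.07 (others 2.45 to 2.54), and sham rat 3 was low for the growth arrest gene Gadd45a at 3.93 (others 4.71 to 4.79). At 6 months, TBI rat 2 was low for Foxj1 at 1.22 (others 3.54 to 3.86) and for the glycolytic regulator Pfkfb3 at 5.10 (others 5.40 to 5.44), and TBI rat 4 was high for Cdk1 at 1.21 (others 0.26 to 0.41). Sham rat 4 was low for C2 at 1.94 (others 2.65 to 2.68), for Col26a1 at 0.55 (others 1.23 to 1.25) and for the globin Hba-a2 at 9.65 (others 10.1 to 10.1). Sham rat 1 was low for the hyaluronan receptor Cd44 at 1.09 (others 1.51 to 1.57), and sham rat 2 was high for the metalloreductase Steap4 at 1.54 (others 0.96 to 0.99).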

How the results depend on the processing

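Counts of called probes are given as the difference between intervals, the 24 hr effect, the 6 months effect, the mean effect and the probes changed the same way, which were 0, 2057, 4, 1645 and 259 as reported. They were 0, 337, 2, 429 and 155 with the 75th percentile scale, 0, 667, 12, 716 and 226 after quantile normalization, 0, 366, 6, about 4.6e+02 and 161 in the deposited table, and 0, 373, 2, 459 and 152 with the median of probes above background on all 24 arrays, a scale chosen after seeing the data. Background correction by normexp gave 81, 6281, 88, 6993 and 200, and the counts were 0, 10006, 8, 13160 and 6645 with no filter, and 0, 2022, 0, 1544 and 132 when a probe had to be above background on all 16 arrays. They were 1, 817, 4, 557 and 239 with the 16 TBI and sham arrays only, 0, 75, 8, 51 and 131 with all 60 cortex arrays, and 7, 2238, 5, 1741 and 250 with a trended, robust variance. With naive rats in place of sham they were 549, 6202, 14, 4502 and 563. Of these 563 probes changed the same way, 177 were higher and 386 lower in TBI. With naive rats of 1 year in place of sham at 6 months, the counts were 21, 614, 4049 and 356. These are for the difference, 6 months, the mean and both, in an alternative added after seeing the data. Leaving out 1 array at a time gave 0 to 27, 399 to 3413, 3 to 12, 652 to 3155 and 174 to 345. The mean effect fell to 652 without TBI rat 1 of 24 hr, and the probes changed the same way fell to 174 without TBI rat 4 of 6 months. The cause of these changes was not tested.

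Replicate numbers did not pair the rats, since deviations of same-numbered arrays correlated at -0.283 to 0.299, and 2 of 4 arrays at 24 hr and 0 of 4 at 6 months correlated best with their own number. With the replicate block the counts were 0, 1345, 2, 1059 and 278. A slide block could not be fitted, because each group lies on 1 slide.

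Of the 129 genes changed the same way, 64 remained with the 75th percentile scale, 87 after quantile normalization and 37 against naive rats. Directions reversed only when the control group changed. Against naive rats the log2 values were 0.34 for Gfral at 6 months, -0.049 for the mean effect of Med9, -0.19 for Mfhas1 at 24 hr, 0.25 for Sectm1b at 6 months, and for Ppp1r1b -0.48 at 24 hr, 0.70 for the difference between intervals and -0.13 for the mean effect. Against naive rats of 1 year they were -0.027 for the mean effect of Dnaaf4, and 0.030 for Dok2 and 0.20 for Sectm1b at 6 months. Probes not above background carry only bounds.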
